A study of Mus musculus with 20 samples.

Results

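The genes of the kinesin motors and of the tubulins were followed from the mouse oocyte to the blastocyst. They were taken as every array probe set with a single gene symbol that starts with Kif and a digit or c, with Tuba, with Tubb or with Tubg, which takes in the Tubgcp genes. The rule found 95 of 20380 single-symbol probe sets, which stand for 46 of 12393 genes. They are 10 kinesins of the spindle and of cytokinesis, 18 kinesins of transport and other roles, 4 alpha-tubulins, 8 beta-tubulins and 6 genes of gamma-tubulin and its ring complex. Another 7 probe sets that list a kinesin or tubulin beside other symbols were left out. Tuba1b, Tuba1c and Kif20b had no tested probe set with that symbol alone, so they have no value here.

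The series holds 20 Affymetrix MOE430A arrays, 4 each of mouse oocytes, 1-cell embryos, 2-cell embryos, 8-cell embryos and blastocysts. For every array the labels give total RNA that went through 2 rounds of in vitro transcription, a step that copies RNA many times over from cDNA. They name no strain, genotype, treatment, maturation state of the oocytes or number of embryos pooled per array. They also do not tell whether the 4 arrays of a stage are separate pools, so p-values measure only the spread between these arrays, which may be technical.

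Microtubules are hollow filaments built from alpha- and beta-tubulin dimers, and mammals carry several genes for each. Gamma-tubulin sits in a ring complex with the Tubgcp proteins and starts new filaments. Kinesins are motor proteins that walk along microtubules or take them apart: some carry vesicles and organelles, others build the spindle, move chromosomes and close the cell at cytokinesis. The mouse oocyte stores transcripts for the first divisions, its own genome is switched on mainly at the 2-cell stage, and its early spindles form without centrioles.

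Values are linear probe-set intensities that the authors scaled to a common array mean, so they describe a transcript's share of the array's signal and not its amount per embryo. A gene is represented by its tested probe set with the highest mean, a level is the mean intensity ± SD over the 4 arrays of a stage, and a change is a difference in log2(intensity + 12.15) ± moderated standard error, later stage minus earlier. A change was called, and is written as a rise or fall, where the Benjamini-Hochberg adjusted p of limma's two-sided test over 17208 tested probe sets was under 0.05. Intensities of different probe sets are not set against each other. Consecutive comparisons share the arrays of the stage between them. Of the 46 genes, 43 had a tested probe set. The exceptions were Kif13a, Kif21b and Kifc5b, whose highest intensities on any array were 36, 10.2 and 33.9.

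Stage marker lists covered the oocyte, the 2-cell embryo and the blastocyst, and none was made for the 1-cell or the 8-cell stage. Summed over 7 oocyte genes such as Zp3 and Gdf9, intensity ran from 26607 to 31319 on the oocyte arrays and from 148 to 209 on the blastocyst arrays, while 7 blastocyst genes such as Krt8 and Cdx2 ran from 332 to 465 and from 12122 to 14430. Gdf9 and Bmp15 had higher means at the 1-cell stage (9208 and 1369) than in oocytes (7590 and 746). The rest of that list was highest in oocytes. Gata6 had a mean of 1055 at the 8-cell stage and 630 in blastocysts, and the rest of its list was highest in blastocysts. The 2-cell genes Zfp352 and Tdpoz1 summed to between 2016 and 3127 at the 2-cell stage and to at most 119 elsewhere. Of 10 cumulus or granulosa genes 3 to 5 lay above the intensity filter of 32.9 at each stage, with sums from 234 to 599 over all arrays. Inha reached 202.3 and Star 140.7, while Ptx3 never passed 36.2. Of 8 sperm genes 2 or 3 lay above the filter, with sums from 82.9 to 384. Ldhc had means of 140 in oocytes and 173 at the 2-cell stage and at most 17.5 at the others. Akap4 had means above the filter at each stage, while Tnp1, Tnp2 and Odf1 stayed at or below 17.5. Of 3 blood genes 1 lay above the filter, Hba-a1, which reached 70.9, and Alas2 never passed 9.5. Of 6 oviduct or ciliated-cell genes 2 to 4 did: Ovgp1, an oviduct secretory protein, read 219.6 to 764.6 at the 2-cell stage and 3105 on 8-cell replicate 2, against 46.5 to 193.5 on the other 8-cell arrays, and at most 111.6 elsewhere. Without 8-cell replicate 2, 15 in place of 16 kinesin and tubulin genes were called from the 2-cell to the 8-cell stage and 18 in place of 19 from the 8-cell stage to the blastocyst. The ratio of the 3' to the 5' beta-actin probe sets was 1.52 to 2.22 in blastocysts and 3.45 to 6.01 at the other stages, and an 18S ribosomal RNA probe set read at least 11006.5 on the 1-cell arrays and at most 1127.7 elsewhere. The part of these values in the results was not tested.

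From the oocyte to the blastocyst, 25 kinesin and tubulin genes fell and 4 rose. The largest falls were those of the beta-tubulins Tubb6, Tubb2b, Tubb2a and Tubb3 and of the kinesin Kif17, and the rises were those of Tuba1a, Tubb5, Kif5b and Tubgcp3. Together 67.4% of the members were called, where 59.8% of all 10257 tested genes were; 33.6% of all genes fell and 26.2% rose. The median change was -0.81 over the members and -0.20 over all genes. Because these are whole oocytes and embryos, fewer cells of a type and less RNA per cell cannot be told apart.

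Step by step, 9 members rose and 15 fell from the oocyte to the 1-cell embryo, against 15.2% and 16.6% of all genes (31.9% called in either direction). From the 1-cell to the 2-cell stage 6 rose and 13 fell, against 22.0% and 22.7% of all genes (44.7% in all). From the 2-cell to the 8-cell stage 2 rose and 14 fell, against 22.2% and 25.7% (47.9% in all). From the 8-cell stage to the blastocyst 6 rose and 13 fell, against 20% and 26.4% (46.4% in all). The share of members called was above that of all genes at the first step (55.8%), close to it at the second and the fourth (44.2% each) and below it at the third (37.2%). Falls outnumbered rises among the members at each of the 4 steps, whereas the medians were near 0: -0.07, 0.01, -0.19 and -0.28, beside 0.09, -0.07, 0.04 and -0.22 over all genes.

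**Figure D1:**
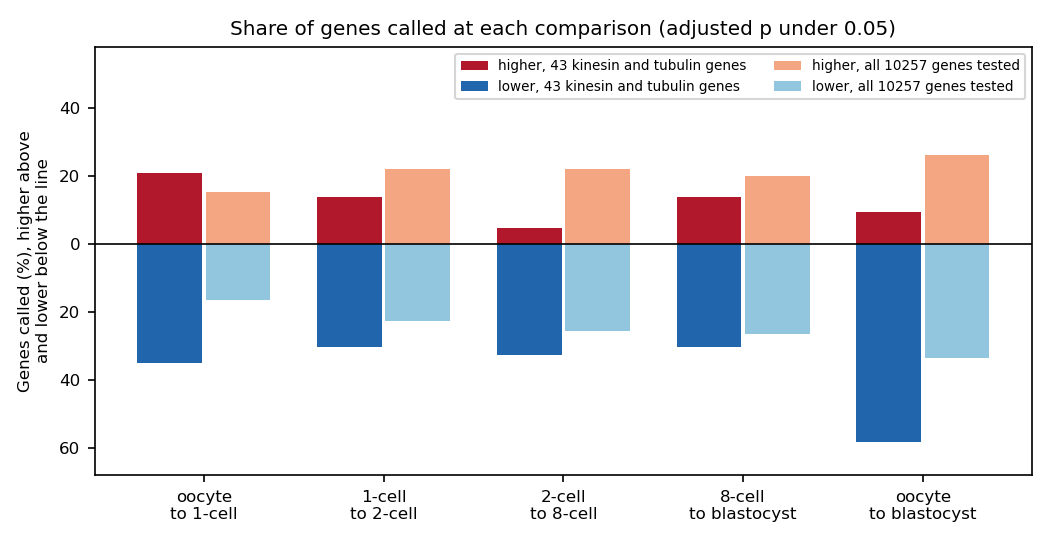
Share of genes called higher (bars above the line) and lower (bars below it), in percent of the genes tested, at 5 comparisons between stages, for the 43 kinesin and tubulin genes and for all 10257 genes. From the oocyte to the blastocyst 25 of the 43 were lower and 4 higher.

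These directions depend on the reference to which arrays are scaled. When arrays were instead scaled to their 18 hybridization-control probe sets, the median of all probe sets moved by -0.83 from the oocyte to the 1-cell embryo, 0.167 at the next step, -0.441 from the 2-cell to the 8-cell stage, 0.876 from the 8-cell stage to the blastocyst and -0.246 from first to last. The share of called probe sets that were higher went from 51.1% to 0.63% at the first step, from 51.9% to 65.7%, from 48.0% to 21.6% and from 43.4% to 95.6% at the following ones. On that scale 0 members rose and 24 fell at the first step, and 17 rose and 0 fell at the last. Centring each array on its median moved the median of all probe sets by -0.11 at the 1-cell to 2-cell step and by 0.225 from the 8-cell stage to the blastocyst, where 63.0% of the calls were then higher. Rises and falls below are therefore relative to the authors' scaling of each array, and not amounts per embryo.

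The members differed in when they stood highest. The highest mean was in the oocyte for 15 genes (34.9%, against 16.2% of all tested genes), at the 1-cell stage for 11 (25.6% against 25.7%), at the 2-cell stage for 5 (11.6% against 14.9%), at the 8-cell stage for 9 (20.9% against 25.7%) and in the blastocyst for 3 (6.98% against 17.6%). These counts depend on the scaling. On the hybridization-control scale 37 members were highest in the oocyte, where 57.1% of all genes were, and 1, 1, 0 and 4 at the later stages in order. The 5 at the 2-cell stage were 3 with quantile normalization and 2 with median centring. For 8 of the 15 genes highest in the oocyte under the authors' scaling, all 4 oocyte arrays read above every other array: Kif17, Kif2c, Kif4, Tuba4a, Tubb2a, Tubb2b, Tubb4b and Tubb6. The same held at the 1-cell stage for Kif11, Kif20a, Kif21a, Kif23, Kif5c and Tubb3, at the 2-cell stage for Kif3c, in the blastocyst for Tuba1a and Tubb5, and at the 8-cell stage for 0 genes. In the order of development this held for 4.95%, 6.93%, 3.87%, 4.5% and 7.75% of all 10257 tested genes, beside 8, 6, 1, 0 and 2 of the 43 members. Of the 1658 genes highest in the oocyte it held for 508, beside 8 of the 15 members highest there. The blastocyst was the lowest stage for 22 members (51.2%, against 34.4% of all genes). Over the 4 steps Kif17, Kif2c and Tubb6 were called at each, 11 genes at 3, 11 at 2 and 11 at 1. Kif12, Kif3b, Kif5a, Kifc1, Kifc2, Tuba3b and Tubgcp4 were called at none. That is 6.98%, 25.6%, 25.6%, 25.6% and 16.3% of the members at 4, 3, 2, 1 and 0 steps, beside 8.01%, 19.9%, 26.6%, 25.9% and 19.6% of all genes. The median range between a gene's highest and lowest stage was 1.40 on the log2 scale for the members and 1.52 for all genes.

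**Figure D2:**
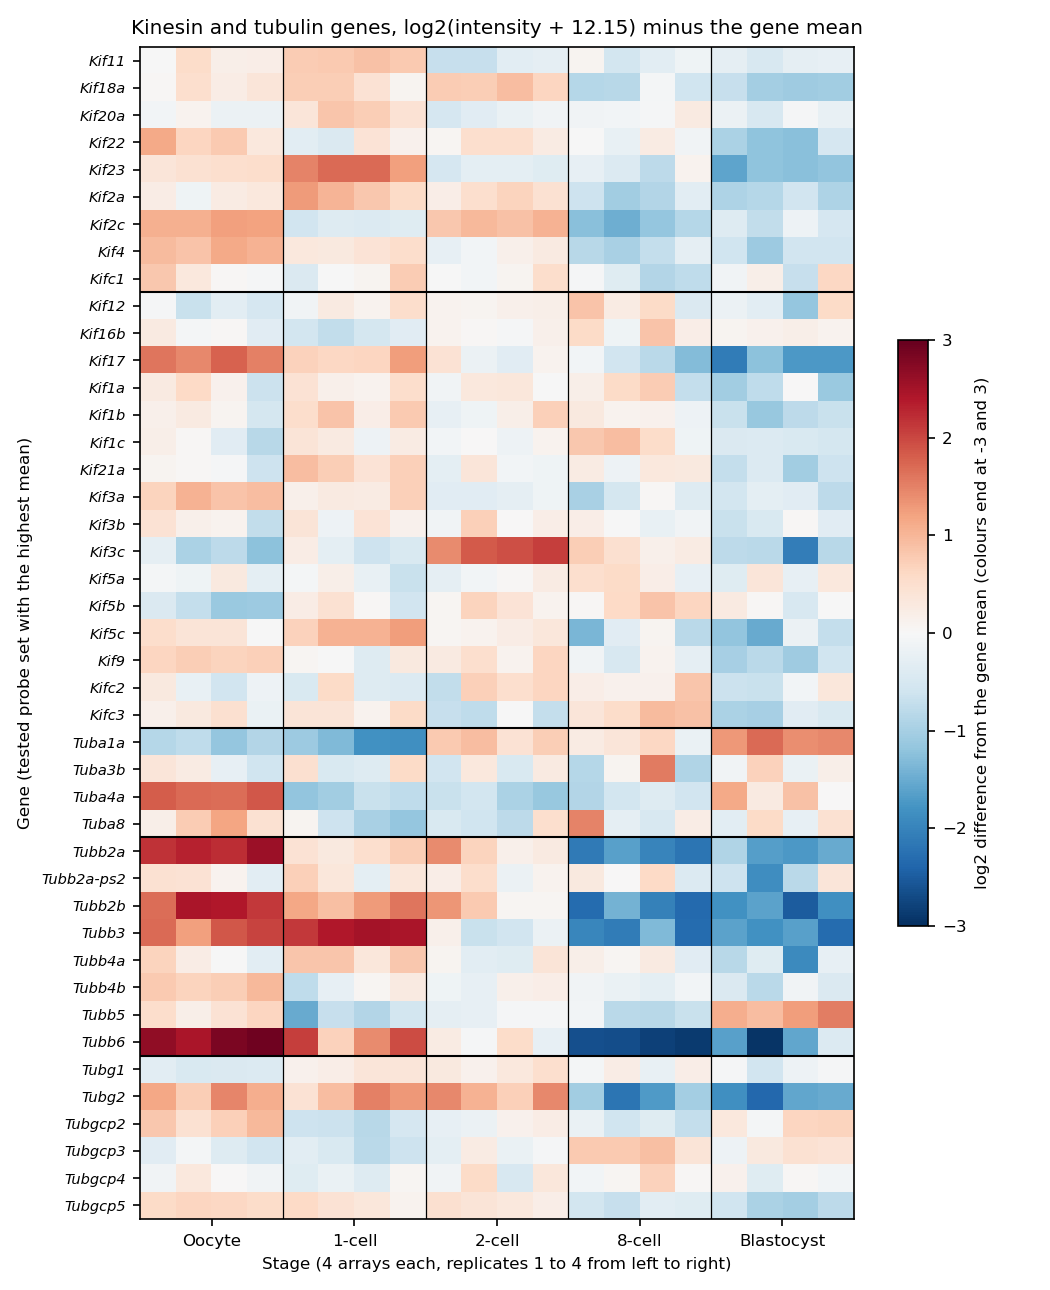
Difference of each array's log2(intensity + 12.15) from the gene's mean over all 20 arrays, for the 43 tested genes in rows, ordered by role, and the arrays in columns by stage; red is above and blue below the gene's mean, and colours end at -3 and 3. Tubb2a, Tubb2b, Tubb3 and Tubb6 go from red in the oocyte to blue at the 8-cell stage, Kif23 is reddest at the 1-cell stage, Kif3c at the 2-cell stage, and Tuba1a and Tubb5 in the blastocyst.

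The beta-tubulins form the body of the microtubule together with alpha-tubulin, and their genes took several courses. All 8 tested beta-tubulins were called from the oocyte to the blastocyst, 7 lower and Tubb5 higher, with a median change of -2.39 against -0.20 over all genes. At the single steps 5 fell and 1 rose, 4 fell and 1 rose, 4 fell and 0 rose, and finally 2 fell and 2 rose. That is 75%, 62.5%, 50% and 50% called, beside 31.9%, 44.7%, 47.9% and 46.4% of all genes. From oocyte to blastocyst it was 100% beside 59.8%. Among the 8, Tubb2a-ps2 is a transcribed pseudogene.

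Tubb6, a beta-tubulin that most tissues carry, gave oocyte values of 1065, 917, 1188 and 1265, 1-cell values of 702, 264, 444 and 649, and 2-cell values of 189, 155, 236 and 130.0. At the 8-cell stage it read 15.1, 14.6, 12.2 and 10.9, and in blastocysts 43.1, 10.1, 46.0 and 114.8. No 2 of the first 4 stages overlapped, while the blastocyst arrays spread over both sides of the 8-cell values. Tubb6 fell by 1.17 ± 0.33 from the oocyte to the 1-cell embryo (adjusted p = 0.00772), by 1.41 ± 0.33 to the 2-cell stage (adjusted p = 0.000915) and by 2.88 ± 0.33 to the 8-cell stage (adjusted p = 3.87e-08), then rose by 1.12 ± 0.33 (adjusted p = 0.00851). The final rise rested on blastocyst replicate 4, without which it was 0.71 (adjusted p = 0.0567), and the first fall was -0.89 without 1-cell replicate 2 (adjusted p = 0.0513).

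Tubb2a, known as a neuronal beta-tubulin, gave oocyte values of 2189, 2436, 2271 and 2896 and 1-cell values of 655, 596, 684.5 and 814.5. At the 2-cell stage it read 1314, 770.5, 538 and 587, at the 8-cell stage 101, 146.5, 113 and 95.7, and in blastocysts 252, 144, 137 and 160.1. The oocyte arrays lay above all others, the 1-cell and 2-cell arrays overlapped, and the 8-cell arrays lay below both. Tubb2a fell by 1.81 ± 0.22 at the first step (adjusted p = 2.72e-07) and fell by 2.62 ± 0.22 from the 2-cell to the 8-cell stage (adjusted p = 1.11e-10), while the 0.14 from the 1-cell to the 2-cell stage and the 0.53 from the 8-cell stage to the blastocyst were not called. Its second tested probe set fell at the 2-cell to 8-cell step too, and had a change of -0.39, not called, at the first.

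Tubb2b, the gene next to Tubb2a on chromosome 13 and near-identical in its coding sequence, gave oocyte values of 478, 824, 788 and 655, 1-cell values of 327, 274, 358 and 452, and 2-cell values of 368, 251, 146 and 147. At the 8-cell stage it read 18.7, 44.4, 25.5 and 17.9, and in blastocysts 30.9, 37.7, 14.9 and 30.4. Its 8-cell and blastocyst values lay around the filter of 32.9, where a log2 change understates the loss. Tubb2b fell by 0.93 ± 0.27 (adjusted p = 0.00854), by 0.68 ± 0.27 (adjusted p = 0.0402) and by 2.58 ± 0.27 (adjusted p = 5.23e-09) at the first 3 steps. The fall of 0.68, whose stages overlap, was no longer called without any of 1-cell replicates 1, 3 and 4 or 2-cell replicates 3 and 4, where it ranged from -0.71 to -0.51. A probe set that reads 2 near-identical transcripts cannot divide them, so the values of Tubb2a and Tubb2b are uncertain as values of each gene alone.

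Tubb3, class III beta-tubulin and a marker of neurons, stood highest at the 1-cell stage. It gave oocyte values of 211.5, 149, 235.5 and 267, 1-cell values of 285.5, 349, 372 and 363, and 2-cell values of 64.0, 31.1, 34.0 and 48.9. At the 8-cell stage the highest array read 15.2, and in blastocysts 10.3. Every 1-cell array lay above every other array. Tubb3 fell by 2.68 ± 0.25 from the 1-cell to the 2-cell stage (adjusted p = 6e-10) and by 1.61 ± 0.25 to the 8-cell stage (adjusted p = 3.96e-06). Its rise of 0.66 ± 0.25 from the oocyte (adjusted p = 0.0434) was not called without any of 6 arrays, where adjusted p ranged from 0.0554 to 0.167, under median centring (0.60, adjusted p = 0.0885), or on the hybridization-control scale (-0.33).

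Tubb4b, a beta-tubulin of most tissues and of cilia, fell after the oocyte, and its representative probe set was called at no later consecutive step. Its oocyte arrays read 3029, 2796, 2940.0 and 3499, and its 1-cell arrays 1040, 1481, 1845 and 2144. The 2-cell arrays read 1611, 1489, 1977 and 2019, the 8-cell arrays 1652, 1524, 1438 and 1671, and the blastocyst arrays 1304, 1001, 1633 and 1306. The change at the first step was -0.95 ± 0.18 (adjusted p = 0.000189), and those of the next 3 steps, 0.16, -0.16 and -0.28, were not called. With the mean of its 5 probe sets the first change was -0.38 (adjusted p = 0.0545), and the last was called, at -0.61 (adjusted p = 0.00178). Over these 5 sets the last change ran from -0.85 to -0.28.

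Tubb5, the widely expressed class I beta-tubulin, moved the other way at the end. It gave oocyte values of 1098, 846, 1026 and 1193, 1-cell values of 255.5, 459.5, 403 and 511, and 2-cell values of 619, 637, 740 and 735. At the 8-cell stage it read 713, 427, 419 and 471, and in blastocysts 1605, 1446, 1817 and 2201, above every other array. Tubb5 fell by 1.36 ± 0.20 at the first step (adjusted p = 4.23e-06), rose by 0.77 ± 0.20 to the 2-cell stage (adjusted p = 0.00204) and rose by 1.79 ± 0.20 from the 8-cell stage to the blastocyst (adjusted p = 3.73e-08). The -0.45 between was not called (adjusted p = 0.0626), and the 2-cell rise was 0.28 with the mean of both probe sets (adjusted p = 0.169). The other probe set did not carry the first fall, with means of 98.5 and 97.4 (adjusted p = 0.992). Both sets carried the last rise. From oocyte to blastocyst the gain was 0.75 ± 0.20 (adjusted p = 0.00175), and 0.48 on the hybridization-control scale (adjusted p = 0.178).

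Tubb4a, a beta-tubulin of brain, ranged from 51.7 to 113.9 in oocytes and from 9.0 to 54.3 in blastocysts. It fell by 0.75 ± 0.29 to the 2-cell stage (adjusted p = 0.0352) and by 0.88 ± 0.29 to the blastocyst (adjusted p = 0.0157). The stages overlapped at both steps, and on the hybridization-control scale the changes were -0.54 and -0.01 (adjusted p = 0.289 and 0.992). The pseudogene Tubb2a-ps2 ranged from 47.5 to 89.1 in oocytes and from 8.3 to 82.9 in blastocysts, and its called step was the last, at -0.85 ± 0.33 (adjusted p = 0.0365). The stages overlapped there too, and on the hybridization-control scale its change was 0.04 (adjusted p = 0.95).

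**Figure D3:**
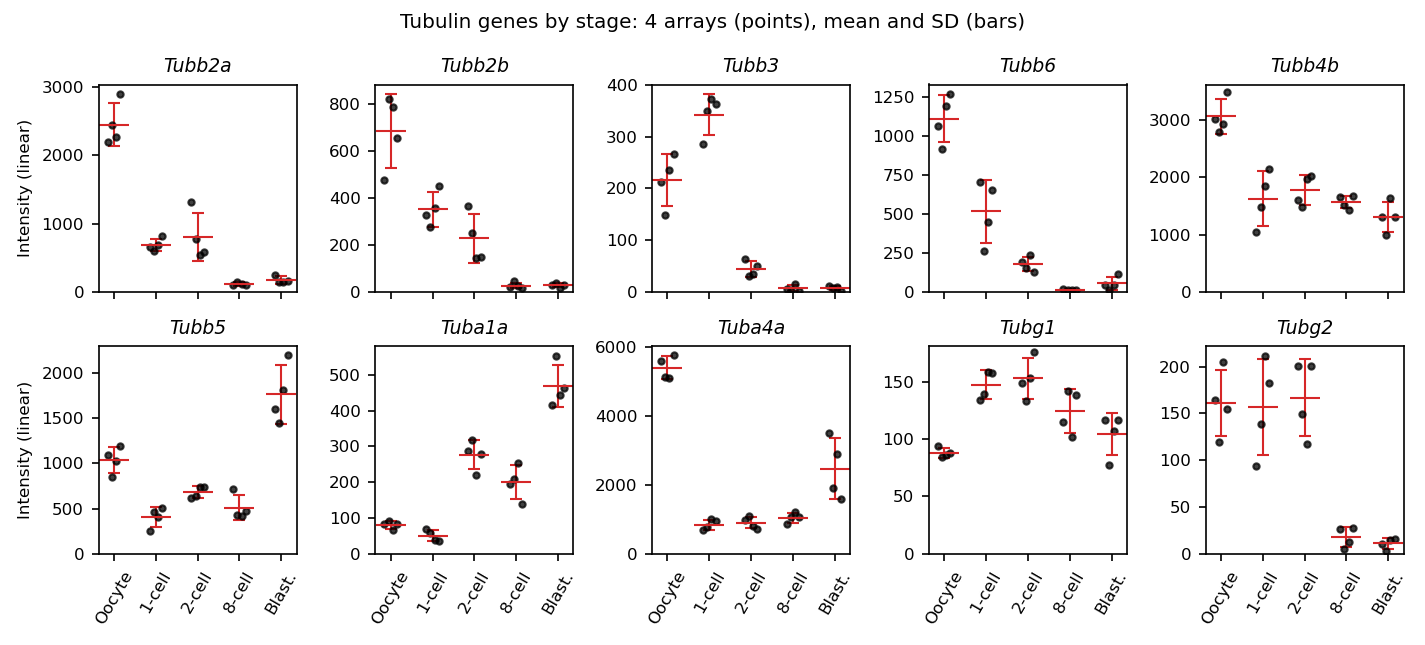
Intensity (linear axis from 0) of 10 tubulin genes at 5 stages; points are the 4 arrays, bars the mean and SD. Tubb2a, Tubb2b, Tubb3, Tubb6 and Tubg2 are near the floor of the panels from the 8-cell stage, Tubb5 and Tuba1a are highest in blastocysts, and Tuba4a falls after the oocyte and is higher again in blastocysts.

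The alpha-tubulins pair with these beta-tubulins in the dimer. Of 4 tested genes 3 fell and 0 rose at the first step, 1 rose at the second, 0 were called by limma at the next (1 at an unadjusted p under 0.05), and 2 rose at the last. These are 75%, 25%, 0% and 50% of only 4 genes, beside 31.9%, 44.7%, 47.9% and 46.4% of all genes called. Tuba1a, a major alpha-tubulin of dividing and neural cells, gave oocyte values of 84.1, 90.1, 65.2 and 83.0 and 1-cell values of 69.7, 57.6, 37.6 and 36.4. The 2-cell arrays read 288, 318, 221 and 278, the 8-cell arrays 196, 210.2, 253.5 and 138, and the blastocyst arrays 417, 554, 444.5 and 463. All 2-cell arrays lay above the oocyte and 1-cell arrays, and all blastocyst arrays above the rest. Tuba1a rose by 2.23 ± 0.20 from the 1-cell to the 2-cell stage (adjusted p = 3.38e-10) and by 1.21 ± 0.20 from the 8-cell stage to the blastocyst (adjusted p = 2.11e-05). The -0.47 between was not called (adjusted p = 0.0569), and the first fall, -0.60 ± 0.20 (adjusted p = 0.0228), was lost without 1-cell replicate 3 or 4 or oocyte replicate 2, at -0.55 to -0.49. Tuba1a is closely alike in sequence to Tuba1b and Tuba1c, whose probe sets carry several symbols, so its signal is uncertain as that of a single gene.

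Tuba4a, an alpha-tubulin that unlike most carries no terminal tyrosine in its gene, gave oocyte values of 5600, 5137, 5110.0 and 5779 and 1-cell values of 687, 762, 998 and 936. The 2-cell arrays read 993, 1081.5, 813 and 712, the 8-cell arrays 856, 1070.4, 1201 and 1064, and the blastocyst arrays 3511, 1906, 2899 and 1593. The oocyte arrays did not overlap any other stage, the 1-cell, 2-cell and 8-cell stages overlapped each other, and the blastocyst arrays lay between. Tuba4a fell by 2.67 ± 0.20 at the first step (adjusted p = 3.24e-11), the largest fall of any member there, and rose by 1.17 ± 0.20 at the last (adjusted p = 2.88e-05). Its 3 probe sets did not move alike at the last step, with changes from -0.98 to 1.17 and a mean of 0.11 (adjusted p = 0.625). Tuba8 fell by 1.32 ± 0.37 at the first step (adjusted p = 0.00692), from 40.7 to 93.1 down to 8.8 to 36.9, and Tuba3b, at 14.1 to 133, was called at no step.

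Gamma-tubulin is encoded by Tubg1 and Tubg2, which lie side by side on chromosome 11, and their levels took different courses. Tubg1, the widely expressed form, gave oocyte values of 94.6, 84.6, 86.3 and 87.7, 1-cell values of 134, 140.0, 159 and 158, 2-cell values of 149.7, 133, 154 and 176.5, 8-cell values of 115, 142, 102 and 139, and blastocyst values of 117, 77.8, 107 and 117. The 1-cell arrays lay above the oocyte arrays and overlapped with those of the 2-cell stage. Tubg1 rose by 0.67 ± 0.17 at the first step (adjusted p = 0.00369) under the authors' scaling (-0.27 on the hybridization-control scale) and was called at no later step. Tubg2, the form best known from brain and oocytes, gave oocyte values of 164.5, 119, 206 and 155, 1-cell values of 93.7, 139, 211.5 and 183, and 2-cell values of 201, 149.6, 117 and 200.4. It read 25.9, 5.0, 12.1 and 26.9 at the 8-cell stage and at most 15.5 in blastocysts. It fell by 2.64 ± 0.28 from the 2-cell to the 8-cell stage (adjusted p = 7.91e-09), with no overlap between the stages, and no other consecutive step was called. The difference between the courses of the 2 genes was not tested.

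The Tubgcp proteins hold gamma-tubulin in the ring. Tubgcp2, a core subunit, gave oocyte values of 236, 183, 221 and 265, 1-cell values of 80.5, 79.2, 67.7 and 88.5, 2-cell values of 107, 114.5, 144 and 155, 8-cell values of 113, 81.9, 97.8 and 75.1, and blastocyst values of 166, 125, 209 and 215. The oocyte arrays lay above all those of the 1-cell, 2-cell and 8-cell stages, and the blastocyst arrays reached back to oocyte values. It fell by 1.38 ± 0.19 (adjusted p = 2.71e-06), rose by 0.63 ± 0.19 (adjusted p = 0.00851), and rose by 0.86 ± 0.19 at the last step (adjusted p = 0.000793). Tubgcp3, the other core subunit, was low, with 19.9 to 33.9 in oocytes, and 27.4 to 44.8 and 50.8 to 77.5 at the 2-cell and 8-cell stages; the rise between those was 0.78 ± 0.22 (adjusted p = 0.00487; 0.31 on the hybridization-control scale, adjusted p = 0.481). Its gain of 0.60 ± 0.22 from oocyte to blastocyst (adjusted p = 0.0238) was lost without blastocyst replicate 3 or 4 or oocyte replicate 4, at adjusted p from 0.0586 to 0.0685. Tubgcp5, a subunit at few positions of the ring, fell by 0.83 ± 0.16 from the 2-cell stage, at 233 to 284, to the 8-cell stage, at 120.3 to 157.5 (adjusted p = 8.19e-05). Tubgcp4, a like subunit, gave 110.1, 152, 121 and 111 in oocytes, 89.6, 103, 88.4 and 124 at the 1-cell, 109, 182, 82.5 and 154 at the 2-cell and 111, 125.5, 199.6 and 122 at the 8-cell stage, and 131, 89.9, 123 and 113 in blastocysts. Its stages overlapped, and the adjusted p of its 5 comparisons ranged from 0.288 to 0.745. The other probe set of Tubgcp4 rose by 0.97 ± 0.24 from oocyte to blastocyst, without overlap (adjusted p = 0.000829). With the mean of both sets that change was 0.43 (adjusted p = 0.0274).

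Of the spindle and cytokinesis kinesins, 9 of 10 had a tested probe set, and 7 of these fell from the oocyte to the blastocyst while 0 rose. The median change was -1.24 against -0.20 over all genes, and 77.8% were called beside 59.8% of all genes. At the first step 4 rose (Kif11, Kif20a, Kif23 and Kif2a) and 3 fell (Kif22, Kif2c and Kif4), and on the hybridization-control scale 3 of the 4 rises turned to falls in sign and Kif23 stood at 0.03. The same 4 genes fell from the 1-cell to the 2-cell stage, a comparison that shares its 1-cell arrays with the one before, while Kif2c rose. From the 2-cell to the 8-cell stage Kif18a, Kif2a, Kif2c and Kif4 fell and 0 rose. From the 8-cell stage to the blastocyst Kif22 and Kif23 fell and Kif2c rose. At the 4 steps 77.8%, 55.6%, 44.4% and 33.3% of the 9 were called, beside 31.9%, 44.7%, 47.9% and 46.4% of all genes.

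The promoters of 4 spindle kinesins and 2 tubulins are shown because these genes stood highest or lowest at different stages. They were picked with their values and matches known and are no sample of the family: they include all 3 spindle kinesins with TTTGAA, the first motif below, and leave out 5 without it, Kif18a, Kif2a, Kif4, Kifc1 and Kifc5b. Each is the 250 bases before the start site from RefSeq on GRCm38.p6, read 5' to 3' along the gene, with capitals for the cell cycle element core TTTGAA, for the box known as CCAAT and for the GC box GGGCGG on either strand. On the reverse strand TTTGAA reads as TTCAAA, the second as ATTGG and the GC box as CCGCCC. Kif23 lies at chr9:61946800-61947049 (minus strand), Kif11 at chr19:37376132-37376381 (plus strand), Kif2c at chr4:117178773-117179022 (minus strand), Kif22 at chr7:127042421-127042670 (minus strand), Tuba1a at chr15:98953502-98953751 (minus strand) and Tubb5 at chr17:35838302-35838551 (minus strand).
Kif23: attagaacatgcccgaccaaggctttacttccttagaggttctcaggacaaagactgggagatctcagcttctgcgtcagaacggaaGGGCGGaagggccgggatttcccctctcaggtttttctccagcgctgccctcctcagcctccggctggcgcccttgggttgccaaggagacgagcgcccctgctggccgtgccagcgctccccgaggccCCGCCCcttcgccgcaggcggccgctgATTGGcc
Kif11: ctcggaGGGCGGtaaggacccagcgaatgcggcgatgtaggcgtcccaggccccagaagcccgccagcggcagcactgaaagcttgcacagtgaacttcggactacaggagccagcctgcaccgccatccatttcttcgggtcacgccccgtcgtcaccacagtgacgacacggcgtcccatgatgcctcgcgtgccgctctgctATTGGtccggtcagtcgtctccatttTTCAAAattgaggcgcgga
Kif2c: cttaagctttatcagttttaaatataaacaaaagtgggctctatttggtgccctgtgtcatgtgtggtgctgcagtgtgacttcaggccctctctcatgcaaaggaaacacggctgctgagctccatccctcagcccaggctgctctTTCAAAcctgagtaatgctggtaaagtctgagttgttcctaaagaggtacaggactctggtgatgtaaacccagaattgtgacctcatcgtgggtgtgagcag
Kif22: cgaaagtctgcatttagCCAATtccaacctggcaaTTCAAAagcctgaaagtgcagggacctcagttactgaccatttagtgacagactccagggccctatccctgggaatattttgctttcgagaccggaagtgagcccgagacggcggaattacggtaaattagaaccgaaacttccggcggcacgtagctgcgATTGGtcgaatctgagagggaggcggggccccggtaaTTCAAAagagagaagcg
Tuba1a: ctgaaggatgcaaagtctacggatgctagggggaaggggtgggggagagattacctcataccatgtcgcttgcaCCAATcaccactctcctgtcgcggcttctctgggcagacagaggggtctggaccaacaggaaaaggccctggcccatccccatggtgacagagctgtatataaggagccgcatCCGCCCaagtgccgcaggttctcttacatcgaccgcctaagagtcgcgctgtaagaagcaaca
Tubb5: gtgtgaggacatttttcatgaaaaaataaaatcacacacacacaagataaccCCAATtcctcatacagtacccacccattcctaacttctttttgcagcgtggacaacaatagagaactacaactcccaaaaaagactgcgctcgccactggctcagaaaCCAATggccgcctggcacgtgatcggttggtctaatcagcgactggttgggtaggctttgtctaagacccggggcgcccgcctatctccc

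Kif11 holds TTTGAA at position -19 from the start site (first base of the match) with CCAAT at -45, Kif22 holds TTTGAA at -17 and -215 with CCAAT at -54 and -233, and Kif2c holds TTTGAA at -103 alone. Kif23 has CCAAT at -7 and GGGCGG at -34 and -163, Tuba1a CCAAT at -176 and GGGCGG at -63, and Tubb5 CCAAT at -90 and -198. No matches overlap. A RefSeq promoter was matched for 35 of the 46 genes. TTTGAA was in 14.3% of these 35 and in 16.3% of all 27025 promoters of the same length, CCAAT in 40% and 34.5%, and GGGCGG in 48.6% and 32.9%, with a median GC content of 63.6% in the members and 52.0% in all. Among the 9 spindle kinesins with a promoter TTTGAA was in 3, CCAAT in 6 and GGGCGG in 5. A match is a description of the letters and not a binding site.

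Kif23, the motor of the central spindle at cytokinesis, stood highest at the 1-cell stage. It gave oocyte values of 1545, 1653, 1705 and 1748.5, 1-cell values of 3411, 3906, 3908 and 2848, and 2-cell values of 847, 981, 981.5 and 935. At the 8-cell stage it read 1011, 902, 695 and 1294, and in blastocysts 392, 515, 497 and 521. All 1-cell arrays lay above every other array and all blastocyst arrays below. Kif23 rose by 1.07 ± 0.16 (adjusted p = 1.06e-05; 0.03 on the hybridization-control scale, adjusted p = 0.924), fell by 1.89 ± 0.16 (adjusted p = 1.86e-10), was at 0.03 ± 0.16 (adjusted p = 0.909) and fell by 0.98 ± 0.16 (adjusted p = 2.6e-05; 0.11 on that scale). Both of its probe sets carried the 2 first calls and the last.

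Kif11, the tetrameric motor that pushes spindle poles apart, gave oocyte values of 201, 303, 230.2 and 236, 1-cell values of 351, 354, 384 and 355, and 2-cell values of 120.4, 121.5, 161 and 165. The 8-cell arrays read 214, 134, 161 and 184, and the blastocyst arrays 165, 140.4, 166 and 169.7. Its 1-cell arrays lay above every other array. It fell by 1.29 ± 0.17 from the 1-cell to the 2-cell stage (adjusted p = 4.28e-07), a call that 1 of its 3 probe sets carried. The rise before it was 0.56 ± 0.17 (adjusted p = 0.0125), and 0.48 without oocyte replicate 1 (adjusted p = 0.0506), 0.50 under median centring (adjusted p = 0.0528) and -0.43 on the hybridization-control scale.

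Kif20a, which carries the chromosomal passenger proteins to the midzone, gave oocyte values of 383, 439.7, 357 and 358, 1-cell values of 527, 727, 681.5 and 549, and 2-cell values of 280.2, 316, 352 and 376. On the 8-cell arrays the values were 374, 383, 394 and 493, and on the blastocyst arrays 357.5, 289, 396 and 344. It rose by 0.67 ± 0.16 (adjusted p = 0.00168; -0.34 on the hybridization-control scale) and fell by 0.88 ± 0.16 (adjusted p = 3.86e-05), with no overlap at either step. Kif2a, which takes microtubules apart at the spindle poles, gave 311.5, 242, 318 and 333.5 in oocytes, 658, 547, 474 and 400.5 at the 1-cell stage, 304, 381, 425 and 369 at the 2-cell stage and 122 to 211 at the 8-cell stage. It rose by 0.75 ± 0.18 (adjusted p = 0.00228) and fell by 1.17 ± 0.18 from the 2-cell to the 8-cell stage (adjusted p = 5.53e-06). The rise was not called with the mean of its 5 probe sets (0.2, adjusted p = 0.422) or on the hybridization-control scale (-0.26, adjusted p = 0.461). The fall between, -0.47 ± 0.18 (adjusted p = 0.0413), was lost without any of 5 arrays and read 0.19 with the mean of its 5 probe sets.

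Kif2c, which takes microtubules apart at kinetochores, changed direction at each step. It gave oocyte values of 1300.3, 1300.1, 1472 and 1433, 1-cell values of 408, 467, 465.5 and 476, and 2-cell values of 1100.2, 1232, 1146 and 1277. The 8-cell arrays read 252, 217, 271 and 337.5, and the blastocyst arrays 467, 367, 558 and 430.1. No consecutive stages overlapped. The changes were -1.57 ± 0.15 (adjusted p = 4.92e-09), 1.36 ± 0.15 (adjusted p = 2.07e-08), -2.11 ± 0.15 (adjusted p = 5.32e-12) and 0.73 ± 0.15 (adjusted p = 0.000352). A second of its 4 tested probe sets carried the first 3 calls, no other carried the last, and the mean over the 4 was -0.11 there.

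Kif22, which pushes chromosome arms from the poles, gave oocyte values of 3183, 2257, 2491 and 1789, 1-cell values of 1168, 1074, 1915 and 1583, and 2-cell values of 1515, 2049.8, 2051 and 1721. On the 8-cell arrays the values were 1439, 1247, 1715 and 1353, and on the blastocyst arrays 745, 617, 600.3 and 1024, below those of every other stage. It fell by 0.76 ± 0.20 at the first step, where the stages overlap (adjusted p = 0.0041), and by 0.96 ± 0.20 at the last (adjusted p = 0.00037). The last was 0.14 on the hybridization-control scale. All 3 of its probe sets carried both calls, and the other sets fell by 1.99 and 2.20 at the first step, without overlap. From the 1-cell to the 2-cell stage those sets rose by 0.89 and 1.03 (adjusted p = 0.00138 and 0.000108). The representative's 0.38 there was not called (adjusted p = 0.133), and the mean of the 3 sets was 0.77 (adjusted p = 0.000198). Kif18a, which limits kinetochore microtubule length, gave 210.3, 296, 243 and 267 in oocytes, 351, 347, 281 and 216 at the 1-cell stage, 355, 347.5, 400.3 and 325 at the 2-cell stage, 108, 110.2, 197 and 132 at the 8-cell stage and 123, 94.1, 90.9 and 92.4 in blastocysts. It fell by 1.34 ± 0.19 from the 2-cell to the 8-cell stage (adjusted p = 1.27e-06).

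Kif4, a chromosome-arm and midzone motor, went from 546 to 672 in oocytes to 367 to 434 at the 1-cell stage, a fall of 0.61 ± 0.17 (adjusted p = 0.00756), and from 251 to 358 at the 2-cell stage to 144 to 243 at the 8-cell stage, a fall of 0.73 ± 0.17 (adjusted p = 0.000877). Kifc1, a minus-end motor that focuses spindle poles, gave 177, 122, 98.6 and 91.9 in oocytes, 67.5, 93.8, 101 and 170.1 at the 1-cell stage, 94.4, 89.6, 102 and 143 at the 2-cell stage, 92, 71.3, 45.9 and 51.0 at the 8-cell stage and 86.9, 109.5, 54.8 and 152 in blastocysts. It was called at no step, with an adjusted p of 0.0542 for the -0.65 ± 0.28 from the 2-cell to the 8-cell stage; under quantile normalization that change was -0.62 (adjusted p = 0.0449).

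**Figure D4:**
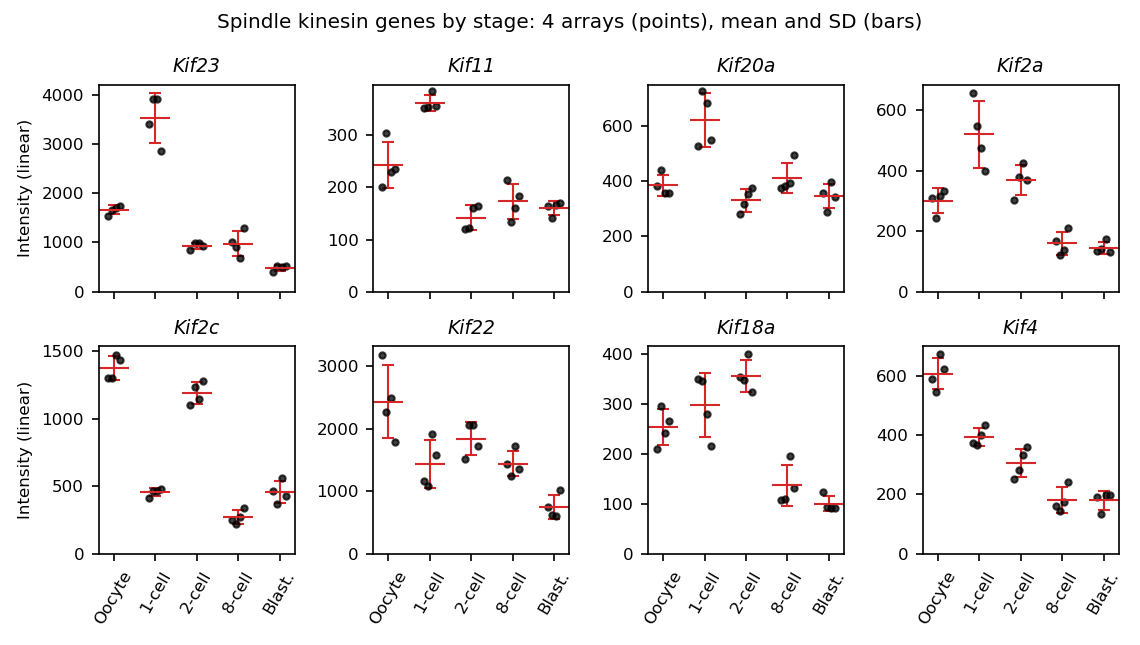
Intensity (linear axis from 0) of 8 spindle and cytokinesis kinesins at 5 stages; points are the 4 arrays, bars the mean and SD. Kif23, Kif11 and Kif20a have all 4 1-cell arrays above the other stages, and Kif2c is high in oocytes and at the 2-cell stage and low at the 1-cell and 8-cell stages.

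Of 16 tested transport and other kinesins 3 rose and 3 fell at the first step, 2 and 5 at the second, 1 and 4 at the third, and 0 and 9 at the last. Called in either direction were 37.5%, 43.8%, 31.2% and 56.2% at these steps, beside 31.9%, 44.7%, 47.9% and 46.4% of all genes. From oocyte to blastocyst 1 rose and 8 fell, which is 56.2% called beside 59.8% of all genes. The median there was -0.45 against -0.20 over all genes. On the hybridization-control scale none of the 43 members fell at the last step. Kif13a and Kif21b were not tested.

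Kif17, a motor of dendrites, cilia and the male germ line, gave oocyte values of 1026, 911, 1154 and 964, 1-cell values of 538, 507, 515 and 793, and 2-cell values of 447, 287, 258 and 354. The 8-cell arrays read 308, 215, 182 and 126.5, and the blastocyst arrays 67.3, 132, 90.8 and 91.1. The first 3 stages did not overlap, while the 8-cell arrays overlapped with those of the 2-cell stage and of the blastocyst. Kif17 fell at each step, by 0.79 ± 0.22, 0.79 ± 0.22, 0.70 ± 0.22 and 1.00 ± 0.22 (adjusted p = 0.00733, 0.00488, 0.0113 and 0.000762), and by 3.28 ± 0.22 in all (adjusted p = 7.05e-13). All 3 of its probe sets carried the first 3 falls and the overall one, at -4.28 to -3.28, and 2 carried the last. On the hybridization-control scale the 4 steps read -1.81, -0.58, -1.22 and 0.01 (adjusted p = 3.24e-06, 0.171, 0.00117 and 0.978), and the change from first to last -3.6.

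Kif3c, a partner in kinesin-2 motors, peaked at the 2-cell stage. It gave oocyte values of 126, 74.2, 85.1 and 58.8, 1-cell values of 183, 123, 95.8 and 109, and 2-cell values of 433, 585, 623 and 693.5. On the 8-cell arrays the values were 266, 219, 174 and 185, and on the blastocyst arrays 85.4, 83.6, 27.4 and 82.1. All 2-cell arrays lay above every other array. Kif3c rose by 2.11 ± 0.26 from the 1-cell stage (adjusted p = 1.25e-07) and fell by 1.42 ± 0.26 (adjusted p = 5.03e-05) and 1.52 ± 0.26 (adjusted p = 3.43e-05; -0.52 on the hybridization-control scale, adjusted p = 0.2). Kif3a, another kinesin-2 motor, read 218, 286, 247 and 259.6 in oocytes, 148, 159.6, 158 and 225 at the 1-cell stage, 100.4, 102, 108 and 118.5 at the 2-cell stage, 61.2, 88.1, 134.6 and 97.5 at the 8-cell stage and 86.2, 104, 101 and 71.2 in blastocysts. Kif3a fell by 0.62 ± 0.20 to the 2-cell stage (adjusted p = 0.0122; -0.49 without 1-cell replicate 4, adjusted p = 0.0579) and by 1.37 ± 0.20 in all (adjusted p = 9.66e-07). Its change of -0.53 ± 0.20 at the first step (adjusted p = 0.0421) was lost without any of 6 arrays and was 0.08 with the mean of its 2 probe sets. The representative probe set of Kif3b, at 58.4 to 179.3, was called at no step. Another of its 4 tested sets rose by 0.97 at the first step (adjusted p = 0.000579). A different set rose by 0.95 at the second step and fell by 0.99 at the next (adjusted p = 0.00541 and 0.00346). These changes came without overlap.

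Kifc3, a minus-end motor at cell junctions, alternated after the 1-cell stage. It gave 242, 264, 302 and 185 in oocytes, 285, 286.5, 233 and 324 at the 1-cell stage and 129, 120.7, 212 and 127 at the 2-cell stage. The 8-cell arrays read 281, 320.4, 426 and 408, and the blastocyst arrays 105, 100.7, 166 and 153. Its changes of -0.91 ± 0.21 (adjusted p = 0.000587), 1.23 ± 0.21 (adjusted p = 1.28e-05) and -1.38 ± 0.21 (adjusted p = 4.76e-06) each came with no overlap; on the hybridization-control scale they were -0.70, 0.69 and -0.33, with adjusted p of 0.0834, 0.0763 and 0.411.

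Kif5b, the ubiquitous heavy chain of conventional kinesin, gave oocyte values of 227, 186.5, 139 and 140.2, 1-cell values of 364.5, 434, 320.1 and 205, and 2-cell values of 327, 503, 421 and 337. On the 8-cell arrays the values were 321, 477, 572 and 495, and on the blastocyst arrays 377, 318, 221 and 312. It rose by 0.87 ± 0.22 at the first step (adjusted p = 0.00353; -0.12 on the hybridization-control scale), though 1-cell replicate 4 lay within the oocyte range, and by 0.79 ± 0.22 in all (adjusted p = 0.00356; 0.53 on that scale, adjusted p = 0.147). Its -0.58 ± 0.22 at the last step (adjusted p = 0.0379) was lost without any of 6 arrays, at adjusted p from 0.0526 to 0.143. Kif5c, a neuronal heavy chain, was near the filter, with 49.1 to 78.6 at the 1-cell stage and 27.8 to 36.4 at the 2-cell stage, a fall of 0.82 ± 0.29 (adjusted p = 0.0232), and fell again by 0.79 ± 0.29 (adjusted p = 0.0271). Kif5a, the other neuronal heavy chain, ranged from 13.9 to 49.8 and was called at no step.

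Kif21a, a motor that slows microtubule growth, stood at 60.8 to 92.9 at the 1-cell stage and at most 59.1 on every other array, and changed by 0.84 ± 0.23 (adjusted p = 0.00547; -0.01 on the hybridization-control scale), -0.73 ± 0.23 (adjusted p = 0.00992; -0.54 on that scale) and, at the last step, -0.87 ± 0.23 (adjusted p = 0.00314; -0.07 on that scale). Its -0.56 from oocyte to blastocyst (adjusted p = 0.0391) was lost without any of 5 arrays. Of the Kif1 motors of vesicles, Kif1b rose by 0.60 ± 0.22 at the first step (adjusted p = 0.0361) and fell by 0.91 ± 0.22 at the last (adjusted p = 0.0013), and on the hybridization-control scale these were -0.39 and 0.11. The stages overlapped at the first step, where 3 of its 7 tested probe sets carried the call, with changes from -0.27 to 1.35. The last call was carried by 4 of the 7. From the 1-cell to the 2-cell stage the representative's -0.46 was not called (adjusted p = 0.0845). Other Kif1b sets rose there by 1.26, 1.15 and 0.79, without overlap, and the remaining sets were not called. Kif1a fell by 0.93 ± 0.32 at the last step (adjusted p = 0.0192), and the change was -0.33 on the hybridization-control scale. Its arrays overlapped at that step, with 9.4 to 47.8 at the 8-cell stage and 4.1 to 23.2 in blastocysts. Both means at that step lay below the filter of 32.9. Kif1c fell by 0.99 ± 0.24 there (adjusted p = 0.00147), but its other probe set was called higher at 0.67, and the change was -0.16 with the mean of both (adjusted p = 0.535) and -0.09 on the hybridization-control scale (adjusted p = 0.856). Kif9, a kinesin of the ciliary axoneme, ranged from 98.7 to 107.6 in oocytes and fell by 0.71 ± 0.21, 0.57 ± 0.21 and 0.68 ± 0.21 at the first, the third and the last step (adjusted p = 0.0092, 0.0246 and 0.00951; the last was 0.15 on the hybridization-control scale). Kif16b, an endosome motor, rose by 0.61 ± 0.20 from the 1-cell to the 2-cell stage (adjusted p = 0.0154). Kif12 and Kifc2 stayed between 5.9 and 61.0 and between 13.7 and 65.4 and were not called.

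Probe sets of a gene did not always move alike. Of 18 genes with several tested probe sets, 7 had opposite calls in at least 1 comparison, 8 of 90 gene and comparison pairs in all: Kif2a at the first and second steps, Kif3a at the first, Tubb4b at the third, Kif1c and Tuba4a at the last, and Kif11 and Kif1b from oocyte to blastocyst. Kif2a changes at the first step ran from -1.43 to 0.97 over 5 probe sets, and those of Kif1c at the last from -0.99 to 0.67 over 2. Probe sets can lie in different transcript ends or introns of a gene, whose positions were not used here. The representatives of Kif22, Kif2c and Tuba1a are of the type that may also read other genes, and those of Tubb2a, Kifc1, Kif16b and Kif5a of the type that reads several transcripts.

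**Figure D5:**
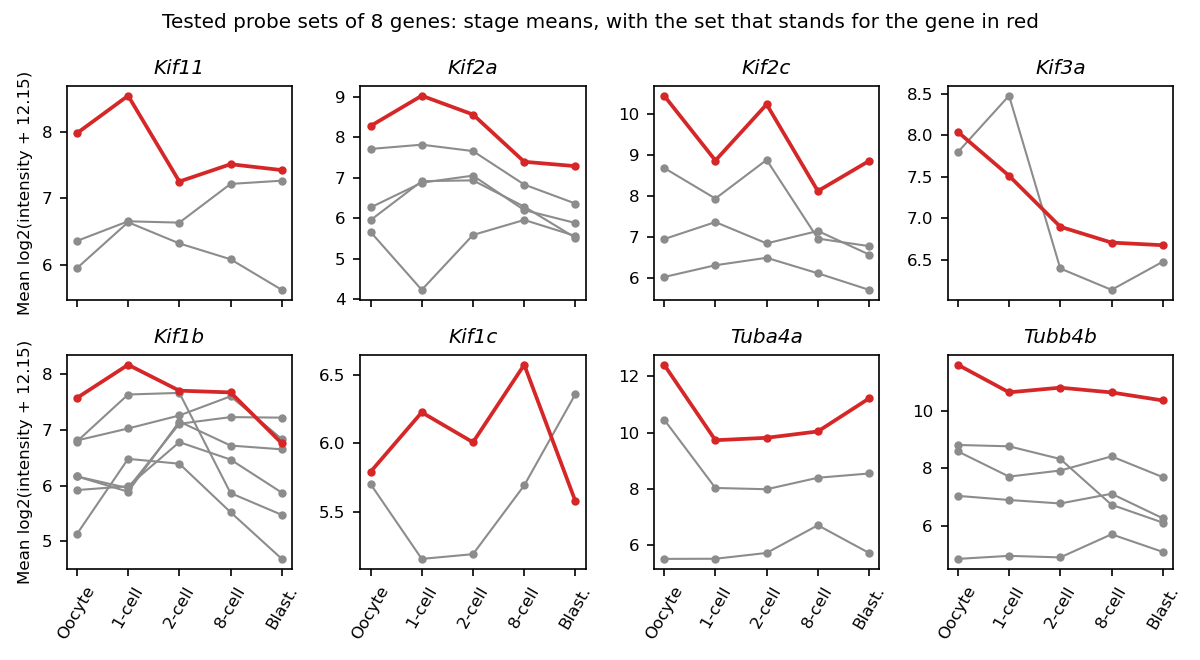
Stage means of log2(intensity + 12.15) for every tested probe set of 8 genes, with the set that stands for the gene in red and the others in grey. For Kif11, Kif1b, Kif1c, Kif2a, Kif3a, Tuba4a and Tubb4b at least 2 sets were called in opposite directions at some comparison; for Kif2c the 2 brightest share the zigzag up to the 8-cell stage.

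The partners of kinesins and tubulins were counted in 5 lists with 90 of 121 genes tested. Over all lists 20 rose and 24 fell at the first step (22.2% and 26.7%, against 15.2% and 16.6% of all genes). At the second 18 rose and 36 fell (20% and 40%, against 22.0% and 22.7%), at the third 16 and 33 (17.8% and 36.7%, against 22.2% and 25.7%) and at the last 34 and 17 (37.8% and 18.9%, against 20% and 26.4%). From oocyte to blastocyst 13 rose and 41 fell (14.4% and 45.6%, against 26.2% and 33.6%). The counts of the single lists that follow have the same shares of all genes beside them.

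Of 23 spindle microtubule-associated proteins 8 rose and 2 fell at the first step, 3 and 14 at the second, 3 and 11 at the third, 10 and 6 at the last, and 2 and 14 overall. Mapre2, an end-binding protein, fell by 2.85 ± 0.27 (adjusted p = 1.2e-09) from 3691 at the 1-cell stage to 506 and fell by 3.86 ± 0.27 (adjusted p = 3.49e-12) to 23.7 at the 8-cell stage. Hmmr, a spindle assembly factor, rose by 2.78 ± 0.25 (adjusted p = 3.08e-10) from 43.2 at the 1-cell stage to 353. Tacc3, which stabilises spindle microtubules, fell by 2.36 ± 0.25 (adjusted p = 2.33e-08) from 2221 in oocytes to 445.

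Of 20 folding cofactors and modifying enzymes of tubulin 2 rose and 8 fell at the first step, 6 and 6 at the second, 6 and 4 at the third, 7 and 3 at the last, and 2 and 8 overall. Agtpbp1, which trims glutamates from tubulin tails, fell by 4.57 ± 0.27 (adjusted p = 6.45e-14) from 881 at the 2-cell stage to 27.0 at the 8-cell stage. Tbcb, a cofactor of alpha-tubulin folding, fell by 2.86 ± 0.20 (adjusted p = 6.08e-12) from 1194 in oocytes to 156, and Pfdn6, a prefoldin subunit, fell by 2.60 ± 0.19 (adjusted p = 1.79e-11) from 527 to 77.6 and rose by 2.76 ± 0.19 (adjusted p = 1.36e-12) to 604 at the 2-cell stage.

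Of 20 dynein and dynactin genes 5 rose and 8 fell at the first step, 5 and 7 at the second, 3 and 9 at the third, 9 and 3 at the last, and 2 and 7 overall. Dynll2, a dynein light chain, fell by 1.79 ± 0.20 (adjusted p = 4.13e-08) from 1240.0 to 360.0 and rose by 1.56 ± 0.20 (adjusted p = 1.59e-07) to 1051. Of 20 centrosome and augmin genes 4 rose and 6 fell at the first step, 4 and 8 at the second, 3 and 8 at the third, 8 and 3 at the last, and 5 and 9 overall. Nin, a protein that anchors microtubules at the centrosome, fell by 3.91 ± 0.18 (adjusted p = 2.99e-15) from 1030.0 at the 8-cell stage to 57.0 in blastocysts, and Plk4, the kinase that starts centriole assembly, fell by 2.89 ± 0.19 (adjusted p = 7.9e-13) from 1614 at the 2-cell stage to 207. Of 7 kinesin light chains and adaptors 2 rose and 3 fell overall; Cenpe, a kinetochore kinesin placed in this list, rose by 0.83 ± 0.27 at the first step (adjusted p = 0.0164) from 344 to 637 and fell by 0.88 ± 0.27 at the second (adjusted p = 0.0078), and Kifap3, the adaptor of kinesin-2, rose by 1.26 ± 0.19 overall (adjusted p = 2.38e-06) from 46.5 to 130.0.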

How the data were processed

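Transcript levels in 20 arrays of 5 stages were read from the deposited series table, whose values are linear probe-set intensities that the authors scaled to a common trimmed mean (150.05 to 150.08 on every array with 2% trimmed at each end). The array software, background correction and genome build remain not given in the sources used here. Intensities were transformed as log2(value + 12.15), and those exceeding 32.9 (the 40th percentile of all values) on 4 or more arrays entered the tests. All stages shared a linear model in limma 3.58.1 (R 4.3.3; lmFit, then a trended eBayes). Genes were assigned by the platform annotation, and all 95 member probe sets kept their symbol when matched to RefSeq by Entrez ID. The members and lists were chosen with earlier results of these data known. Named were a preset group of members, the 4 largest non-overlapping called rises and falls per step, and at most 2 genes per list and comparison. Kif17 and Kif20a lie outside that rule, though their values on every array are given. They are not among the 26 named genes of the checks below. Other members are summarised. Pseudocount, filter, normalization, trend, weights, probe-set choice, stages fitted, replicate block and left-out arrays were varied. The script was tested on simulated data.

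Precision is limited by 4 arrays per stage. Same-numbered arrays of different stages had residual correlations from -0.16 to 0.178, so the numbers were not treated as pairs.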

Additional observations from a re-analysis of the deposited data

Results flagged for a closer look

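In 9 of 130 groups of 4 arrays, from 26 named genes at 5 stages, the highest or lowest array stood apart from the other 3 by more than Dixon's critical share of the group's range; chance alone flags about 1 in 20 such groups. Kif3c in blastocysts had the widest gap, 0.962 of the range, with replicate 3 at 27.4 and the others at 82.1 to 85.4. Kif18a in blastocysts had 0.887 (replicate 1 at 122.9, others 90.9 to 94.1), Kifc3 at the 2-cell stage 0.879 (replicate 3 at 212.2, others 120.7 to 129.4) and Kif21a at the 8-cell stage 0.875 (replicate 2 at 37.4, others 53.5 to 56.2). Kif11 had 0.866 at the 1-cell stage (replicate 3 at 383.6, others 351.0 to 355.2) and 0.841 in blastocysts (replicate 2 at 140.4, others 164.7 to 169.7). Kif2c at the 1-cell stage had 0.853 (replicate 1 at 408.4, others 465.5 to 476.1), Kif23 in blastocysts 0.836 (replicate 1 at 392.3, others 497.3 to 520.9) and Kif21a in oocytes 0.83 (replicate 4 at 23.4, others 41.4 to 46.1).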

How the results depend on the processing

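Counts of called members moved by more than 1.5 times in these cases. From the 2-cell to the 8-cell stage 4 members in place of 2 rose with the mean of probe sets per gene and with quantile normalization. On the hybridization-control scale 0 rose and 24 fell at the first step, 9 were called and 4 fell at the second, 0 rose at the third, 17 rose and 0 fell at the last, and 1 rose from oocyte to blastocyst. The number of members highest at the 2-cell stage was 3 with quantile normalization and 2 with median centring in place of 5, and on the hybridization-control scale 37 were highest in the oocyte, with 1, 1 and 0 for the 1-cell, 2-cell and 8-cell embryos. The cause was not tested.

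With the mean of probe sets, Kif3a at the first step read 0.08, Kif2a at the second 0.19, Kif2c at the last -0.11, and Kif11 and Tubgcp4 from oocyte to blastocyst 0.01 and 0.43. Of these only the change of Tubgcp4 was called (adjusted p = 0.0274). On the hybridization-control scale the first-step changes turned to -0.43 for Kif11, -0.79 for Kif18a, -0.01 for Kif21a, -0.26 for Kif2a, -0.12 for Kif5b, -0.81 for Kifc3, -0.33 for Tubb3 and -0.27 for Tubg1, and those of the last step to 0.94 for Kif11, 0.14 for Kif22, 0.11 for Kif23, 0.91 for Kif2a, 0.92 for Kif3a, 0.49 for Kif5b, 0.82 for Tubb4b and 0.77 for Tubg1. Of 76 calls among 130 pairs of a named gene and a comparison, 42 kept direction and call under every setting run and 57 under every setting except that scale. Leaving out each of the 20 arrays in turn ended 12 of the 76 calls in at least 1 case, and called members ranged from 20 to 25, 15 to 20, 14 to 19 and 16 to 20 at the 4 steps and from 26 to 29 from oocyte to blastocyst.

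With the replicate block 24, 18, 19, 19 and 29 members were called in the 5 comparisons. The block ended the call of Kif2a at the second step (-0.47, adjusted p = 0.0504) and added Kif1c, Kifc1 and Tuba1a at the third; it changed no other call among the named genes. Array signal limits Tubb2b, Tubb3, Tubb6 and Tubg2 from the 8-cell stage on, where most values lie below the filter.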
